A study of Mus musculus with 19 samples.

Results

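Callosal projection neurons (CPN) of the mouse cortex were compared between embryonic day 18 (E18) and postnatal day 3 (P3). The comparison rests on 4 of the series' 19 arrays, 2 at each age, taken by their titles. All mice were C57BL/6 and carried no stated transgene or treatment. CPN were marked with green fluorescent microspheres carried back from the axon's field, for which the labels name sensorimotor cortex, and were then dissociated and sorted by fluorescence into RNAlater. Total RNA was taken up with a StrataPrep micro kit. It was then copied in 2 successive rounds by in vitro transcription, labelled with biotin and hybridised to Affymetrix 430 2.0 mouse arrays. The series' design text describes replicates as independent collections, and the labels do not give the number of animals in each. Corticospinal motor neurons (CSMN, 2 E18 arrays and 3 P3 arrays) and later CPN (2 arrays each of P6 and P14) served to show where the E18 to P3 step of CPN differed. CSMN were also marked with microspheres and sorted. The labels name sensorimotor cortex for CSMN too. They do not make clear whether this is the field of CSMN axons or of their cell bodies.

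Callosal projection neurons are excitatory cortical neurons, most of them in the upper layers, whose axons cross the corpus callosum to the opposite hemisphere. They arise from radial glia, the stem cells of the cortical wall, in many cases through intermediate progenitors that express Eomes and Neurog2. Around birth many of them are still young, and in the days that follow they extend and branch their axons, form synapses and acquire mature excitability.

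Values are log2 array signals per gene, and a difference of 1 is a 2-fold change. The authors' RMA scale compresses large changes, so folds may be smaller than the true ones. Folds are given only where all 4 CPN arrays lay above 6.62, the highest median of any array, because the table has no detection calls. Errors are standard errors of a limma model over all 19 arrays, with Benjamini-Hochberg adjusted p over 18193 genes, and a gene is said to have risen or fallen only at an adjusted p under 0.05. Of these genes, 1470 (8.08%) passed for CPN at P3 against E18, 702 of them higher (3.86%) and 768 lower (4.22%). The difference was at least 2-fold in 1250 genes (6.87%). The median difference over all genes was -0.01.

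The CPN arrays of P3 were close to each other, with a correlation over genes of 0.9952 and an SD of their differences of 0.20, whereas those of E18 correlated at 0.9704 with an SD of 0.50. The counts depend on single arrays. Without E18 array 1 they were 621 higher and 455 lower, without E18 array 2 271 higher and 664 lower, without P3 array 1 311 higher and 435 lower, and without P3 array 2 216 higher and 360 lower. Further down, the count of a gene list without each of these 4 arrays is given in this order. Over all genes 3.86% were higher and 4.22% lower, and each list count is to be read beside these shares. Without either CSMN P14 array, which correlated at only 0.9043 with each other and enter through the shared spread, 2310 genes passed. With 2 arrays in most groups, precision is limited.

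Neuronal and callosal genes were high in all 4 arrays. The medians of 18 pan-neuronal genes were 10.80 and 10.35 in the E18 arrays and 11.25 and 11.01 in the P3 arrays. The medians of 32 upper-layer and callosal identity genes were 9.76 and 9.68 at E18 and 10.02 and 10.01 at P3, above 7.38 and 7.72 in CSMN at E18. This list was chosen with earlier results of these data known, so its higher level in CPN is no independent evidence of callosal identity. The E18 arrays, however, also had medians of progenitor and astrocyte lists above those of every other array. Single astrocyte markers did not all follow the median: Slc1a2 averaged 9.67 in CPN at E18 and 12.01 in CPN at P14. Median levels were 10.95 and 10.39 for radial glia genes and 9.38 and 9.08 for astrocyte markers in the CPN E18 arrays, against 8.16 and 7.98, and 7.48 and 7.40, in the CPN P3 arrays. In bulk RNA of sorted cells, fewer cells of a type and less RNA per cell cannot be told apart, and the part of these markers in the changes below was not tested.

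The largest decreases among the named genes were of 2 markers of neurogenic progenitors. Neurog2, a proneural transcription factor, read 11.43 and 11.46 in the E18 arrays and 5.17 and 5.13 in the P3 arrays. It fell by 6.30 ± 0.18 on the log2 scale (adjusted p = 4.0e-11). Eomes (Tbr2), the T-box factor of intermediate progenitors, read 11.42 and 10.77 at E18 and 5.0 and 5.03 at P3, a difference of -6.08 ± 0.20 (adjusted p = 1.48e-10). Both genes were at the dim end of the array at P3 and bright in both E18 arrays, with no overlap. The arrays of the 2 ages did not overlap in 9295 of all genes (51.1%), nor in any gene that passed, so this adds nothing to a call here or further down. Celsr1, an atypical cadherin of planar cell polarity, read 9.55 and 9.26 and then 4.50 and 4.32, a difference of -5.0 ± 0.31 (adjusted p = 3.01e-07). Insm1, a zinc finger factor that promotes the formation of basal progenitors, read 11.24 and 11.24 and then 7.01 and 6.57 (-4.45 ± 0.44, adjusted p = 1.65e-05). Of 18 measured intermediate progenitor genes, 10 fell, and the rest did not pass the test. The list's median difference was -1.20, and 9, 8, 7 and 8 members were lower with each array left out.

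**Figure D1:**
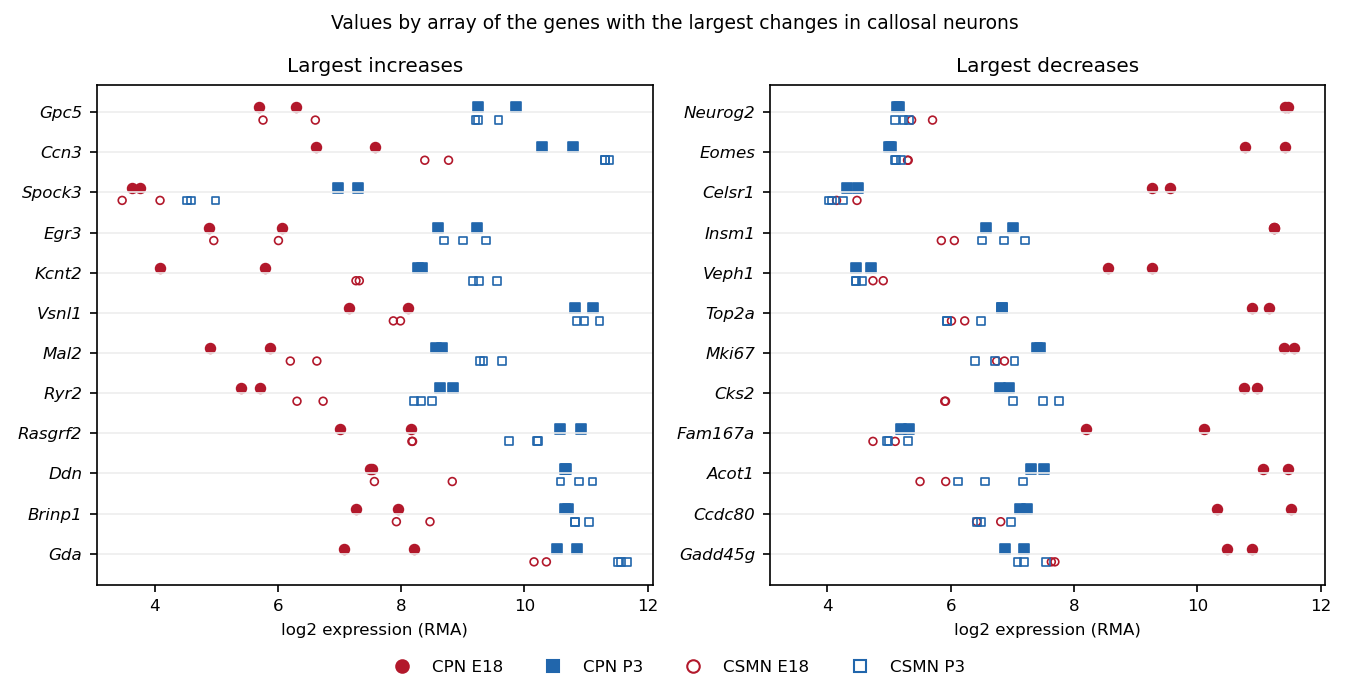
Log2 signal per array (horizontal axis) of the 12 genes with the largest increase and the 12 with the largest decrease from E18 to P3 in CPN; filled red circles are CPN E18 arrays, filled blue squares CPN P3 arrays and open symbols the CSMN arrays of the same ages. For Neurog2 and Eomes the CPN E18 arrays sit at 10.77 to 11.46, while the CPN P3 arrays and both CSMN ages sit between 5.0 and 5.70.

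Most of the measured cell cycle genes fell. Mki67, which encodes the proliferation marker Ki-67, read 11.41 and 11.57 at E18 and 7.40 and 7.45 at P3, and was 16.8-fold lower at P3 (-4.07 ± 0.24, adjusted p = 2.76e-07). Top2a, the topoisomerase that untangles replicated chromosomes, read 10.88 and 11.16 and then 6.83 and 6.83, an 18.3-fold decrease (-4.20 ± 0.29, adjusted p = 1.15e-06). In both genes the E18 arrays lay far above the P3 arrays. Cks2, a subunit that binds cyclin-dependent kinases, read 10.96 and 10.75 and then 6.80 and 6.94, and fell 15.8-fold (adjusted p = 3.82e-05). Ect2, an exchange factor needed for cytokinesis, read 9.37 and 9.54 and then 5.92 and 5.74 (-3.63 ± 0.38, adjusted p = 2.75e-05). In all, 33 of 39 measured cell cycle and mitosis genes fell (29, 26, 28 and 27 with each array left out), against 4.22% of all genes, and their median difference was -1.98. The cell cycle list had median levels of 8.64 and 8.74 in CPN at E18, and its median lay between 6.36 and 6.81 in the other 17 arrays. Ccnd1, the cyclin D1 gene, was among the members that did not pass (-0.30, adjusted p = 0.685).

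Because most of this list fell, its promoters were read from RefSeq (build GRCm38.p6), where 31 of the 39 cell cycle genes, 30 of 36 DNA replication genes and 31 of 40 presynaptic genes had an entry. The 150 bases before the start are shown for 4 of the cell cycle genes just described, for Mcm5 of the replication helicase, and for Syp, a synaptic vesicle gene that rose. Capitals mark CCAAT, the box bound by NF-Y, TTTGAA, the core of the cell cycle genes homology region, and TTTGGCGC or TTTCGCGC, E2F-type motifs, each on either strand.
Mki67, chr7:135716380-135716529, minus strand: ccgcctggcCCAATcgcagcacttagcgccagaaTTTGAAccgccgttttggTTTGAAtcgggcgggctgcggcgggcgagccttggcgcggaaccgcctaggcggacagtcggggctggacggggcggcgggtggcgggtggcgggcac
Top2a, chr11:99024190-99024339, minus strand: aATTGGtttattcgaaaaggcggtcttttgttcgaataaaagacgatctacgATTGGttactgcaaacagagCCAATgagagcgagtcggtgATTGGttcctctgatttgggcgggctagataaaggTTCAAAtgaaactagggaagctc
Cks2, chr13:51645082-51645231, plus strand: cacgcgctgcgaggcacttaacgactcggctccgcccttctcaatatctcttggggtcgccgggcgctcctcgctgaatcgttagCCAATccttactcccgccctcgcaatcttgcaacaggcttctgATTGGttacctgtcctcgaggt
Ect2, chr3:27153879-27154028, minus strand, 1 of 2 promoters in the table: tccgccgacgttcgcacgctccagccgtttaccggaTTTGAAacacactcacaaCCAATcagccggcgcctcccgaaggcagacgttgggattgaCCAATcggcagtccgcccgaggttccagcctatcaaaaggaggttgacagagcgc
Mcm5, chr8:75109359-75109508, plus strand: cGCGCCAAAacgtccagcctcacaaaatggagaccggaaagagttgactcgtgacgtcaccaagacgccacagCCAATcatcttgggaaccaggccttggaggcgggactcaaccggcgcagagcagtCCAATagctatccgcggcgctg
Syp, chrX:7638430-7638579, plus strand: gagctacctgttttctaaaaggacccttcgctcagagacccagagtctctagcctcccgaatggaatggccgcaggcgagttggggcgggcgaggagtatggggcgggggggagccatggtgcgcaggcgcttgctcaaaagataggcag

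In the 250 bases before the start, CCAAT was found in 25 of 31 cell cycle promoters (80.6%) and 19 of 30 replication promoters (63.3%), beside 39.4% of the 14449 tested genes with a promoter entry. TTTGAA was found in 32.3% and 13.3% of these 2 lists, beside 14.1% of all. TTTCGCGC was present in 16.7% of the replication promoters and 3.23% of the cell cycle promoters, beside 0.471% of all. TTTGGCGC, which can overlap it on the opposite strand, was present in 10% of the replication promoters and in none of the cell cycle promoters, beside 0.775% of all. Of the 31 presynaptic promoters 29% held CCAAT and 25.8% held TTTGAA. A match describes the letters in this window and is not a measured binding site.

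DNA replication genes had a smaller median difference. Mcm5, a subunit of the helicase that opens replication origins, read 9.42 and 9.66 at E18 and 7.33 and 7.65 at P3, and fell 4.14-fold (adjusted p = 0.0043, lost without P3 array 1). Cdt1, which loads that helicase, read 9.87 and 10.11 and then 7.83 and 7.78, a 4.55-fold decrease (adjusted p = 0.00435). Rrm1, the large subunit of ribonucleotide reductase, read 10.33 and 10.34 and then 8.37 and 8.50, a 3.72-fold decrease (adjusted p = 2.35e-04). All 3 were higher in both E18 arrays than in either P3 array. Of 36 measured replication genes 18 fell, with a median difference of -0.91. That count was 14, 9, 8 and 10 with each array left out. Pcna, the replication clamp, did not pass (-0.41, adjusted p = 0.674).

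Radial glia genes formed the next group, and all 27 measured members had a negative difference. Prom1, a membrane protein of neural stem cells, read 10.51 and 10.18 at E18 and 6.79 and 6.62 at P3, a 12.5-fold decrease (-3.64 ± 0.26, adjusted p = 1.37e-06). Hes5, a Notch-induced repressor of neurogenesis, read 11.47 and 10.39 and then 7.97 and 7.13 (-3.38 ± 0.46, adjusted p = 2.90e-04). Dmrta2, a factor that keeps cortical progenitors dividing, read 10.03 and 9.86 and then 6.53 and 6.68 (-3.34 ± 0.24, adjusted p = 1.47e-06). Sox2, a stem cell factor, read 11.62 and 11.85 and then 8.59 and 8.07 (-3.41 ± 0.73, adjusted p = 0.00854), a call that was lost without E18 array 2 or P3 array 2. Fabp7, the brain lipid-binding protein gene of radial glia, stayed bright at both ages, with 13.78 and 13.67 at E18 and 12.46 and 11.94 at P3, and its difference of -1.52 ± 0.72 did not pass (adjusted p = 0.290). Nor did Pax6, whose probe set was dim throughout, with 6.20 and 6.56 at E18 and 6.35 and 6.18 at P3. In total 20 of 27 radial glia genes fell (17, 19, 17 and 16 with each array left out), with a median difference of -2.12.

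Some astrocyte markers fell too. Aldoc, an aldolase of glia, read 13.15 and 12.57 at E18 and 10.26 and 9.87 at P3, a 6.95-fold decrease (adjusted p = 0.00269). Slc1a3, the glial glutamate transporter GLAST, read 11.83 and 11.89 and then 9.78 and 9.64, a 4.45-fold decrease (adjusted p = 9.71e-04). Mlc1, a membrane protein of astrocytes, and Aldh1l1, a folate enzyme of astrocytes, differed by -3.28 ± 0.34 and -3.24 ± 0.32. Of 24 astrocyte markers 8 fell (6, 9, 7 and 6 with each array left out), with a median difference of -0.50. Aldoc and Slc1a3 are members of the radial glia list too. Gfap, a filament gene of mature astrocytes, was dim at both ages, with 7.08 and 6.77 at E18 and 6.59 and 6.72 at P3, and did not pass (adjusted p = 0.521).

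In the Notch pathway, ligands on one cell hold back neuronal differentiation in its neighbours. Of 40 measured Notch and Wnt pathway genes 12 fell (10, 10, 9 and 9 with each array left out) and 28 did not pass. Jag1, a ligand, read 8.44 and 8.70 at E18 and 5.58 and 5.52 at P3 (-3.01 ± 0.32, adjusted p = 3.05e-05). Notch1, a receptor, read 11.05 and 10.81 and then 7.84 and 7.68, and fell 9.0-fold (-3.17 ± 0.25, adjusted p = 2.68e-06). Its target Hes5 is described above. Fzd2, a Wnt receptor, read 10.38 and 9.74 and then 6.60 and 6.5 (-3.51 ± 0.30, adjusted p = 5.08e-06). No member passed as higher. At an unadjusted p under 0.05 in the same limma fit, 17 were lower and 1 was higher. The list's median difference was -0.38.

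Growth factor genes moved both ways, with 4 of 30 higher and 5 lower. Mdk, the heparin-binding factor midkine, read 10.43 and 11.09 at E18 and 7.34 and 7.28 at P3, a 10.9-fold decrease (adjusted p = 2.87e-05). Igfbpl1, a secreted binding protein of the insulin-like growth factor family, fell by 2.31 ± 0.33 (adjusted p = 4.63e-04). The 5 lower members were 4, 6, 5 and 4 with each array left out, but the 4 higher ones were 3, 1, 1 and 0. Fgfr1 and Fgfr2 also fell on their brightest probe sets, by 3.09 and 1.64. Without probe sets marked for cross-hybridization, neither passed, with differences of -0.53 and 0.06.

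Among chromatin genes, Ezh2, the methyltransferase of Polycomb complex PRC2, read 10.42 and 10.80 at E18 and 8.34 and 8.35 at P3, a 4.81-fold decrease (-2.26 ± 0.27, adjusted p = 9.33e-05). Hdac1, a histone deacetylase, read 9.91 and 9.97 and then 8.85 and 8.70, a 2.25-fold decrease (adjusted p = 9.46e-04). Both E18 arrays were above both P3 arrays in each gene. In the list of DNA methylation and Polycomb genes 3 of 25 fell, beside 4.22% of all genes. That count was 2, 3, 3 and 2 with each array left out. Actl6a and Ss18, the BAF remodelling subunits of the progenitor form of that complex, were lower by 1.71 ± 0.42 and 1.45 ± 0.30. Actl6a lost its call with any of the 4 arrays left out and Ss18 without E18 array 2 or P3 array 2.

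The list of young-neuron transcription factors, some of which are also active in progenitors, was mixed. Zbtb20, a zinc finger repressor, read 11.62 and 11.71 at E18 and 9.35 and 9.28 at P3, a 5.12-fold decrease (-2.36 ± 0.28, adjusted p = 9.95e-05). Meis2, a homeobox factor, read 12.25 and 12.42 and then 10.49 and 10.18, a 4.0-fold decrease (adjusted p = 0.00149). Nfia, a nuclear factor I gene active in progenitors and young neurons, read 11.45 and 11.22 and then 9.66 and 9.50, a 3.37-fold decrease (adjusted p = 1.40e-04). In the list of 20, 6 fell (4, 4, 5 and 4 with each array left out) and 1, the neuronal factor Myt1l, rose by 1.25 ± 0.27, a call lost without E18 array 2 or either P3 array. Neurod2 and Sox11, which mark postmitotic neurons, did not pass (-0.56, adjusted p = 0.186, and -0.28).

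Among the genes that rose were members of the calcium, synapse, channel and adhesion lists. Vsnl1, a neuronal calcium sensor, read 8.11 and 7.15 at E18 and 10.82 and 11.11 at P3, a 10.1-fold increase (3.33 ± 0.32, adjusted p = 1.16e-05). Ryr2, a calcium release channel of the endoplasmic reticulum, read 5.41 and 5.70 and then 8.63 and 8.85 (3.18 ± 0.24, adjusted p = 2.33e-06). Camk4, a calcium-dependent kinase of the nucleus, read 8.56 and 7.61 and then 10.57 and 10.68 (2.54 ± 0.36, adjusted p = 4.28e-04). Both P3 arrays lay above both E18 arrays in each of these genes. Of 42 measured calcium-binding and calcium-signalling genes 21 rose, against 3.86% of all genes, with a median difference of 1.11. The count was 18, 10, 13 and 10 with each array left out. Camk2a, the kinase abundant at mature synapses, did not pass (0.45, adjusted p = 0.497).

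**Figure D2:**
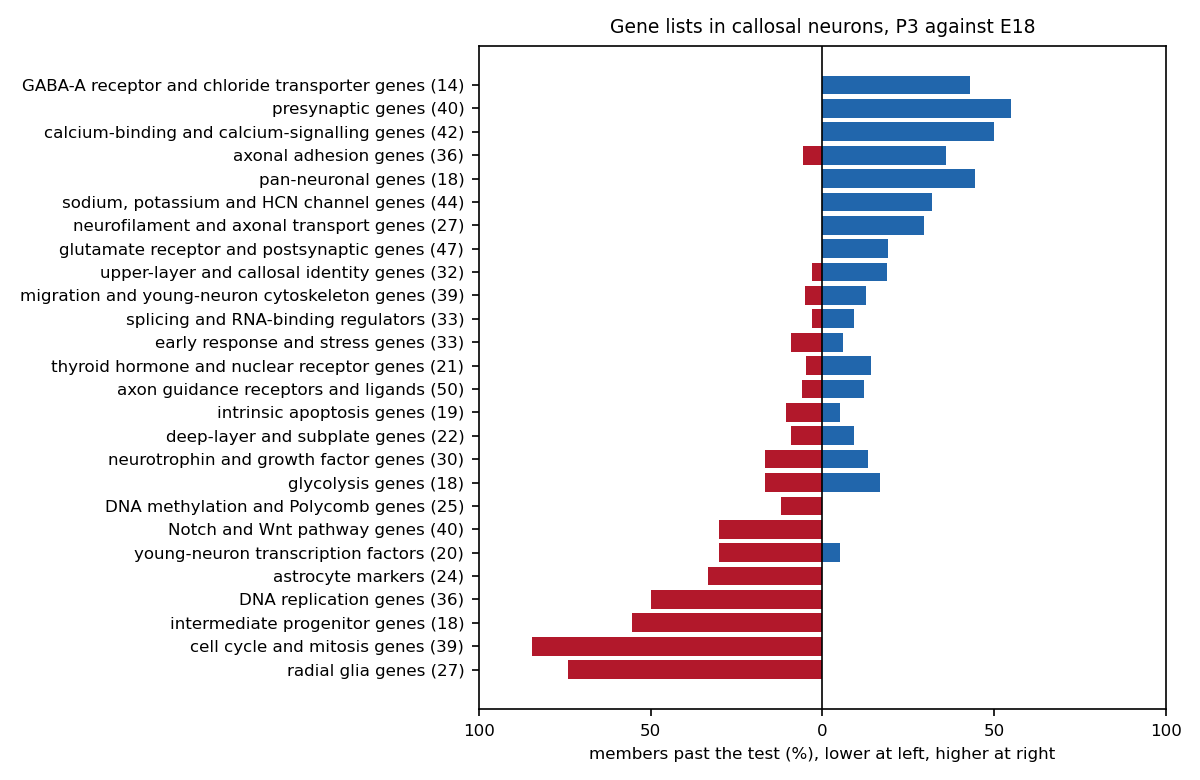
Percent of each list's measured members that were lower (red bars, to the left) or higher (blue bars, to the right) at P3 than at E18 in CPN, at an adjusted p under 0.05; lists are ordered by their median difference, with the number of measured genes in brackets. Cell cycle (33 of 39 lower) and radial glia genes (20 of 27 lower) stand at one end, and presynaptic (22 of 40) and calcium genes (21 of 42) carry long bars on the higher side.

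Of 40 presynaptic genes 22 rose, with a median difference of 1.12. Snap25, a SNARE protein of vesicle fusion, read 8.74 and 9.09 at E18 and 10.89 and 11.02 at P3, a 4.11-fold increase (2.04 ± 0.29, adjusted p = 4.02e-04). Syp, the vesicle protein synaptophysin whose promoter is shown above, read 6.70 and 7.77 and then 9.49 and 9.11, a 4.20-fold increase (2.07 ± 0.37, adjusted p = 0.00243). Sv2b, another vesicle protein, read 8.21 and 7.94 and then 9.93 and 10.01, a 3.71-fold increase (adjusted p = 6.33e-05). The 3 genes were higher in both P3 arrays than in either E18 array. Dnm1, the GTPase of vesicle retrieval, read 9.50 and 7.80 and then 10.42 and 10.62, and its call (1.87 ± 0.50, adjusted p = 0.0306) was lost without E18 array 2 or either P3 array. The list's 22 became 17, 9, 10 and 8 with each array left out. Its median level was 8.82 and 8.90 in the E18 arrays and 10.05 and 10.18 in the P3 arrays.

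On the postsynaptic side 9 of 47 genes rose, with a median difference of 0.50. Ddn, the dendrite protein dendrin, read 7.5 and 7.52 at E18 and 10.67 and 10.66 at P3, an 8.90-fold increase (3.15 ± 0.32, adjusted p = 2.09e-05). Grm7, a presynaptic metabotropic glutamate receptor on this list, read 8.62 and 7.62 and then 10.95 and 10.58, a 6.24-fold increase (adjusted p = 1.95e-05). Grm3, a second metabotropic receptor, read 9.41 and 8.72 and then 10.98 and 11.20, a 4.08-fold increase (adjusted p = 1.31e-04). Nrgn, which binds calmodulin in dendritic spines, read 10.12 and 9.01 and then 11.54 and 11.91 (2.16 ± 0.32, adjusted p = 5.63e-04). The 9 became 8, 4, 4 and 4 with each array left out. Genes of the main ionotropic receptors and their scaffold did not pass, with differences of 0.62 for Gria2, 1.18 for Grin2b and 0.16 for Dlg4 (adjusted p = 0.286, 0.114 and 0.953).

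In the list of GABA-A receptors and chloride transporters 6 of 14 rose, with 7, 3, 6 and 1 when each array was left out. Slc12a5, the potassium-chloride exporter KCC2 that lowers chloride in maturing neurons, read 8.97 and 9.14 at E18 and 11.17 and 11.23 at P3, a 4.43-fold increase (2.15 ± 0.27, adjusted p = 1.23e-04). Slc12a2, the chloride importer NKCC1, differed by -0.10 and did not pass (adjusted p = 0.98). The receptor subunit genes Gabrg1, Gabra5 and Gabra3 were higher by 2.63 ± 0.50, 2.44 ± 0.48 and 1.82 ± 0.38, and each lost its call without P3 array 2.

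Ion channel genes rose in 14 of 44 cases, with a median difference of 0.75. Kcnf1, a silent potassium channel subunit, read 6.19 and 5.23 at E18 and 8.31 and 8.46 at P3 (2.68 ± 0.43, adjusted p = 0.00108). Kcnh1, a voltage-gated potassium channel, read 7.57 and 7.08 and then 9.46 and 9.68, a 4.73-fold increase (adjusted p = 3.20e-04). Kcnt2, a sodium-activated potassium channel, was among the largest increases at 3.37 ± 0.53, from 5.79 and 4.08 to 8.34 and 8.28. The P3 arrays were above the E18 arrays in all 3. The count was 16, 14, 13 and 10 with each array left out.

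**Figure D3:**
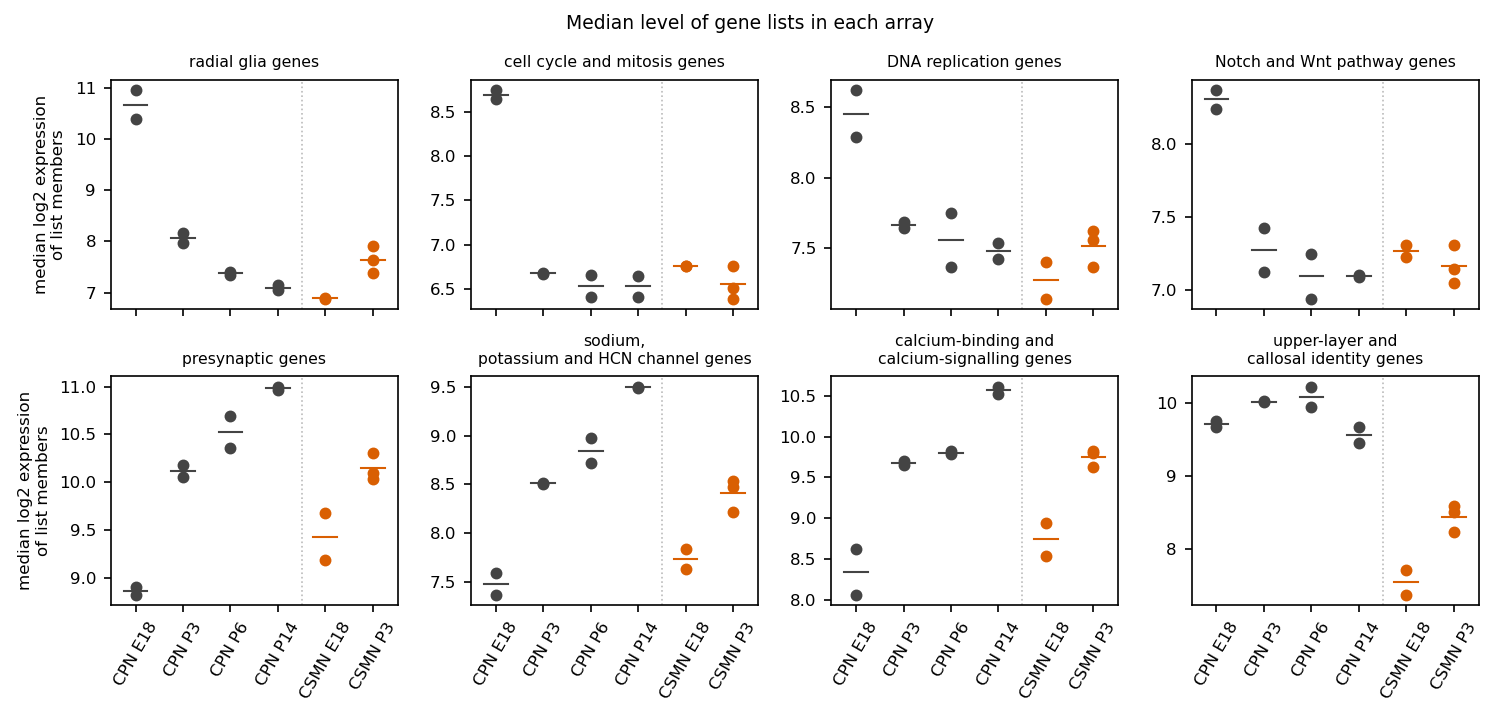
Median log2 signal of the members of 8 gene lists (vertical axis) in each array of CPN at E18, P3, P6 and P14 and of CSMN at E18 and P3; points are arrays and horizontal lines their mean. The cell cycle list reads 8.64 and 8.74 in the CPN E18 arrays and 6.68 and 6.67 at P3, while the presynaptic list moves from 8.82 and 8.90 to 10.05 and 10.18.

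Cell adhesion molecules of axons rose in 13 of 36 cases and fell in 2, with a median difference of 0.88 and 12, 8, 6 and 6 higher members with each array left out. Pcdh19, a protocadherin, read 9.55 and 9.37 at E18 and 11.56 and 11.43 at P3, a 4.09-fold increase (adjusted p = 0.0044). Pcdh7, another protocadherin, read 8.07 and 7.08 and then 9.75 and 9.96 (2.28 ± 0.42, adjusted p = 0.00283). Cntn6, a contactin of the axon surface, read 8.30 and 7.04 and then 9.82 and 9.82 (2.15 ± 0.37, adjusted p = 0.00167). These 3 were higher in both P3 arrays. Of the 2 lower members, Cdh4 (R-cadherin) differed by -1.59 ± 0.32 and Cntnap2 by -1.57 ± 0.32, and both lost their calls without P3 array 2. The mean of all Cntnap2 probe sets differed by -0.25 (adjusted p = 0.698).

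Neurofilament and axonal transport genes rose in 8 of 27 cases (6, 4, 5 and 4 with each array left out). Nefl, the light neurofilament chain, read 8.76 and 9.33 at E18 and 11.37 and 10.99 at P3, a 4.40-fold increase (2.14 ± 0.27, adjusted p = 1.47e-04). Tuba4a, an alpha tubulin of mature neurons, read 8.87 and 9.08 and then 10.81 and 10.88, a 3.66-fold increase (adjusted p = 1.75e-05). Nefm, the medium chain, read 8.24 and 8.09 and then 9.61 and 9.53, a 2.64-fold increase (adjusted p = 0.00321). All 3 had both P3 arrays above the E18 arrays. Gap43, a protein of growing axons, was bright at both ages, with 12.10 and 11.76 at E18 and 13.17 and 13.28 at P3, and rose 2.46-fold (1.30 ± 0.22, adjusted p = 0.00176). Dcx, the microtubule protein of migrating neurons, read 12.21 and 12.74 and then 13.12 and 13.11, and did not pass (0.64 ± 0.46, adjusted p = 0.615).

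Genes used to identify callosal and upper-layer neurons split, with 6 of 32 higher (10, 4, 4 and 4 with each array left out), 1 lower (0 without any 1 of the 4 arrays) and the rest not past the test. Lpl, lipoprotein lipase, read 9.43 and 8.90 at E18 and 11.69 and 12.09 at P3, a 6.62-fold increase (2.73 ± 0.44, adjusted p = 0.00111). Cav1, caveolin 1, read 9.30 and 7.64 and then at least 10.86 in both P3 arrays (2.46 ± 0.47, adjusted p = 0.00357). Plxnd1, a semaphorin receptor, read 8.43 and 7.28 and then 9.65 and 9.71, a 3.53-fold increase (1.82 ± 0.33, adjusted p = 0.00258). Each had both P3 arrays above both E18 arrays, but Cav1 and Plxnd1 differed by more than 1 log2 unit between the E18 arrays. Cux2, an upper-layer homeobox factor, read 8.44 and 9.91 and then 9.97 and 9.85, so the groups overlapped (adjusted p = 0.773). Lmo4, a LIM-domain factor of CPN, read 8.99 and 8.15 and then 9.52 and 9.51, a difference of 0.95 ± 0.33 that did not pass (adjusted p = 0.113). Nectin3, an adhesion molecule, was higher by 1.77 ± 0.47 on its brightest probe set but by -0.06 as the mean of its probe sets, and no direction is given for it.

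Among deep-layer and subplate genes 2 of 22 rose and 2 fell, beside 3.86% and 4.22% of all genes. With each array left out, 2, 2, 1 and 1 were higher and 1, 2, 1 and 1 lower. Foxp1, a forkhead factor, read 10.71 and 10.13 at E18 and 12.05 and 11.94 at P3, a 2.98-fold increase (adjusted p = 0.0012). Ccn2, a matricellular gene that marks the subplate, read 10.94 and 9.47 and then 7.17 and 6.90, and fell by 3.17 ± 0.54 (adjusted p = 0.00168). It does not stand for the list, in which 11 differences were positive and 11 negative. Nr4a2, Cplx3 and Nxph4, also members, differed by 1.62, 0.35 and 0.003 and did not pass. Bcl11b (Ctip2), a factor of corticofugal neurons, read 9.71 and 11.15 and then 10.46 and 9.80, with overlapping groups and no call (-0.30 ± 0.42, adjusted p = 0.902).

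Guidance receptors and ligands changed in 9 of 50 cases, 6 higher and 3 lower, beside 3.86% and 4.22% of all genes. Efna5, an ephrin ligand, read 7.47 and 8.12 at E18 and 9.73 and 9.59 at P3, a 3.64-fold increase (adjusted p = 2.14e-04). Ntm, the adhesion molecule neurotrimin, rose 2.48-fold (adjusted p = 0.00102). Sema5a, a semaphorin, read 9.48 and 9.58 and then 7.04 and 6.37, and fell by 2.82 ± 0.45 (adjusted p = 0.00107). The higher members were 6, 3, 5 and 3 with each array left out and the lower ones 2, 2, 2 and 1. The midline receptor genes Robo1 (-0.32) and Dcc (-0.42) did not pass.

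Some of the largest increases lay outside these lists. Gpc5, a heparan sulfate proteoglycan, read 6.29 and 5.69 at E18 and 9.25 and 9.86 at P3 (3.56 ± 0.40, adjusted p = 5.74e-05). Ccn3, a secreted matricellular protein, read 6.62 and 7.57 and then 10.79 and 10.29 (3.45 ± 0.30, adjusted p = 6.0e-06). Brinp1, a neuronal protein induced during differentiation, read 7.95 and 7.27 and then 10.71 and 10.66, an 8.42-fold increase (adjusted p = 2.68e-06). Spock3, a testican proteoglycan, read 3.63 and 3.76 and then 7.31 and 6.97 (3.44 ± 0.33, adjusted p = 1.16e-05). In each the P3 arrays were above the E18 arrays. Egr3, an activity-regulated factor from the early response list, read 6.07 and 4.88 and then 9.23 and 8.60 (3.44 ± 0.50, adjusted p = 4.75e-04), while Fos and Arc, of the same list, did not pass (-0.23 and 0.18). Klf9, a thyroid hormone-responsive factor, read 8.63 and 7.83 and then 10.16 and 10.54, a 4.34-fold increase (adjusted p = 4.25e-04).

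Energy genes differed by list. No oxidative phosphorylation gene of 47 passed in limma; the differences ran from -0.38 to 0.56 with a median of 0.03, and at an unadjusted p under 0.05 there was 1 higher and no lower member. Of 18 glycolysis genes 3 were higher and 3 lower, beside 3.86% and 4.22% of all genes. Ldhb, a lactate dehydrogenase subunit, read 11.90 and 11.96 at E18 and 10.48 and 10.66 at P3, a 2.56-fold decrease (adjusted p = 2.30e-04), and Hk2, a hexokinase, fell 3.58-fold (adjusted p = 4.02e-04). The third lower member was Aldoc, already counted above in the radial glia and astrocyte lists. The 3 lower members passed with any of the 4 arrays left out, and the 3 higher became 2, 1, 1 and 0.

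Markers of the remaining cell types were mostly dim. Median levels of oligodendrocyte, blood, interneuron and Cajal-Retzius markers lay between 6.11 and 6.70 in the 4 arrays, and endothelial markers between 6.69 and 7.06. Mog, a myelin gene, read 3.84 and 4.97 at E18 and 3.98 and 3.93 at P3, and Gad1, the GABA-synthesising enzyme of interneurons, 6.27 and 7.03 and then 6.79 and 6.78. Some members were bright. Reln, on the interneuron and Cajal-Retzius lists, read 10.1 and 10.8 at E18 and 10.3 and 10.5 at P3. Cacna2d2, on the Cajal-Retzius list, read 8.69 and 9.42 and then 9.86 and 9.85. Microglia markers were brightest in E18 array 1, with a median of 8.12, against 7.27 in E18 array 2 and 7.10 and 7.24 at P3. Csf1r, a receptor of microglia, read 11.48 and 10.23 and then at most 10.01 in the P3 arrays, and did not pass. Of 20 microglia markers 17 had a negative difference and 1 passed (0, 2, 0 and 0 with each array left out). Of 24 endothelial and pericyte markers 1 was higher (0, 0, 1 and 0) and 1 lower (0 in each case). Such counts of 1 member are near the 3.86% higher and 4.22% lower of all genes. The part of these lists in the other results was not tested.

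CSMN served as the comparison of the same days. In CSMN 1890 genes passed (10.4%), 1442 higher (7.93%) and 448 lower (2.46%), so 76.3% of the calls were higher, or 58.2% after quantile normalization. This count is loose, since it was 992 after cyclic loess normalization, 621 without CSMN P3 array 1, 710 without P3 array 2, 1009 without E18 array 2 and 4815 without either CSMN P14 array. The CSMN E18 arrays correlated at 0.9492, with an SD of their differences of 0.59. Among genes above the median brightness the median CSMN difference was 0.39, against 0.06 in CPN, and 95.3% of the CSMN calls were higher. The CPN and CSMN contrasts share no arrays. Of the 702 genes that rose in CPN, 366 rose in CSMN too, which is 52.1% of the CPN list and 25.4% of the CSMN list. The 768 genes that fell in CPN had 19 members that fell in CSMN, 2.47% of the CPN list and 4.24% of the CSMN list, so the share that fell in CSMN was near the 2.46% of all genes. Another 62 rose there, 8.07% of the CPN list and 4.3% of the CSMN list, near the 7.93% of all genes. The median CSMN difference was 0.96 for the CPN genes that rose and -0.01 for those that fell.

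The difference between the 2 changes was tested for every gene. It passed for 676 genes (3.72%), of which 627 (3.45%) changed downward in CPN relative to CSMN and 49 (0.269%) upward, so 7.25% of the calls were upward, or 25.2% after quantile and 19.5% after cyclic loess normalization. The count was 393 without CPN E18 array 1, 333 without CPN P3 array 1, 283 without CPN P3 array 2, 410 without CSMN P3 array 1 and 1436 without either CSMN P14 array. Of the 627, 419 were among the CPN genes that fell and 215 among the CSMN genes that rose. Among genes above the median brightness the difference had a median of -0.27, against 0.04 over all genes. A downward lean was thus shared by bright genes in general, and its cause was not tested.

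Progenitor genes were part of the downward set. Neurog2 in CSMN read 5.36 and 5.70 at E18 and 5.23, 5.09 and 5.32 at P3, so it was dim at both ages, and its change differed by -5.98 ± 0.24 between the types (adjusted p = 6.26e-09). Mki67 in CSMN read 6.75 and 6.87 and then 6.72, 6.39 and 7.03, a difference between the types of -3.97 ± 0.33 (adjusted p = 1.84e-05). Unlike CPN, CSMN showed no bright E18 array for either gene. The difference passed downward for 26 of 39 cell cycle genes (21 to 31 with 1 array left out), 20 of 27 radial glia genes (15 to 21), 12 of 40 Notch and Wnt genes (8 to 14) and 9 of 24 astrocyte markers, the last being 4 without CPN E18 array 1 or CPN P3 array 2. It passed for 11 of 36 replication genes, between 3 and 7 of them without any 1 of the CPN or CSMN E18 arrays.

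Some genes moved in opposite directions. Fabp7 rose in CSMN from 5.89 and 4.86 to 10.44, 9.83 and 11.73, while in CPN it was bright at both ages and lower at P3 without passing, and its change differed by -6.81 ± 0.97 (adjusted p = 9.07e-04). Mcm5 rose in CSMN from 6.47 and 5.63 to 8.15, 7.78 and 7.53 and fell in CPN, a difference of -3.82 ± 0.54 (adjusted p = 8.45e-04). Ldhb rose in CSMN from 10.18 and 10.24 to 11.03, 10.79 and 10.79 and fell in CPN, a difference of -2.02 ± 0.24 (adjusted p = 2.78e-04). Sema5a rose in CSMN from 5.61 and 5.03 to 7.26, 7.11 and 7.05 and fell in CPN (-4.64 ± 0.61, adjusted p = 5.19e-04). At P3 the 2 types were nearer to each other in Sema5a, Mcm5 and Ldhb than at E18. Cck, a neuropeptide gene of many excitatory neurons, rose in both, by 1.97 in CPN and 4.34 in CSMN, with a difference of -2.37 ± 0.46 (adjusted p = 0.00843). The differences of these 5 genes passed with any 1 array of the 4 groups left out.

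**Figure D4:**
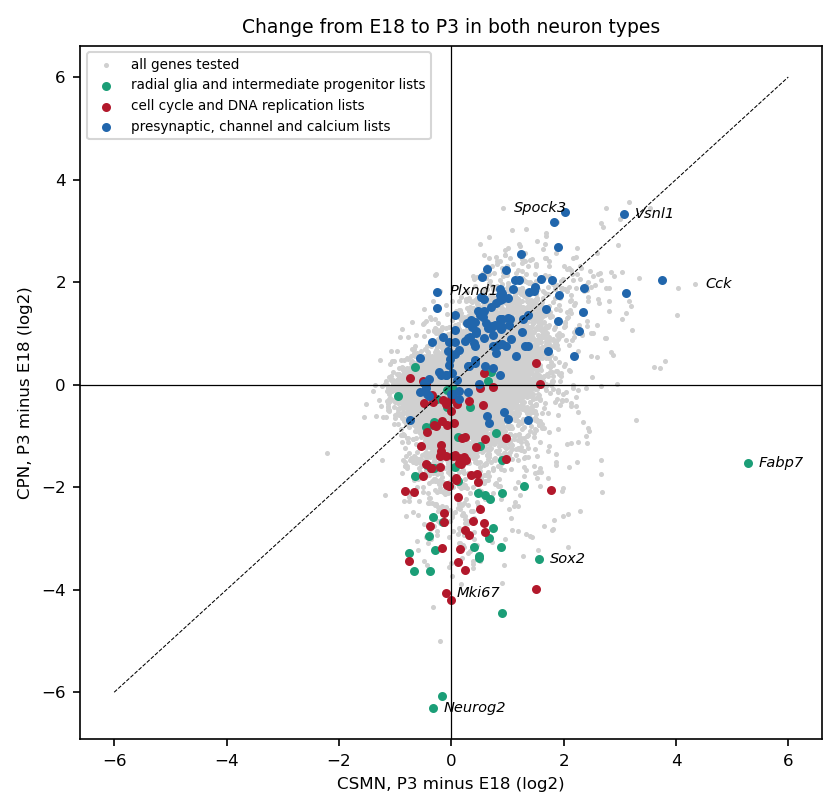
Log2 difference of P3 against E18 in CSMN (horizontal axis) against that in CPN (vertical axis) for all 18193 genes (grey) with the members of selected lists in colour; the dashed line marks equal differences. Neurog2 and Mki67 lie near 0 on the CSMN axis and far down on the CPN axis. Not all progenitor genes do so: Sox2 lies at 1.56 (CSMN) and -3.41 (CPN). Fabp7 lies to the lower right at 5.29 and -1.52, and Spock3 lies above the line at 0.92 and 3.44.

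Fewer genes gained more in CPN. Spock3 in CSMN read 3.47 and 4.09 at E18 and 4.59, 4.53 and 4.99 at P3, so it was dim in CSMN at both ages. Its change differed by 2.52 ± 0.44 (adjusted p = 0.00427). Il1rapl2, a synaptic adhesion molecule, read 6.25 and 6.63 and then 8.73 and 8.43 in CPN and 6.79 and 7.19 and then 6.69, 6.36 and 7.07 in CSMN, a difference of 2.42 ± 0.39 (adjusted p = 0.00223). Lhfp, a tetraspan membrane protein, read 10.04 and 9.26 and then 11.07 and 11.48 in CPN and 10.20 to 10.74 in CSMN, a difference of 1.95 ± 0.34 (adjusted p = 0.00416). These 3 passed with any 1 array of the 4 groups left out. Plxnd1 in CSMN read 6.83 and 6.62 and then 6.28, 6.24 and 7.03, and its difference of 2.03 ± 0.45 (adjusted p = 0.0197) did not pass without CPN E18 array 2, either CPN P3 array, CSMN E18 array 1 or CSMN P3 arrays 1 or 2. The median difference was 1.12 in CPN and 0.73 in CSMN for presynaptic genes and 1.11 and 0.80 for calcium genes, and the difference between the types had a median of 0.41 in both lists, against 0.04 over all genes. It passed for 1 of 40 presynaptic genes, and for 1 calcium gene upward and 3 downward of 42.

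The next step in CPN held few calls. From P3 to P6 1 gene passed (0.0055%), and at an unadjusted p under 0.05 386 did. That is fewer than this threshold would give if no gene changed. The step was not refitted with arrays left out or under other settings, so few calls do not show that few genes changed. That gene, singled out after its values were seen, is Gpr6, an orphan receptor on the callosal list. Its pairs of arrays read 4.26 and 4.33 (E18), 5.42 and 5.22 (P3), 8.35 and 8.37 (P6) and 9.44 and 8.87 (P14), so the brighter ages were those after P3. Its increase of 3.04 ± 0.39 from P3 to P6 passed (adjusted p = 0.0249), and that from E18 to P3, 1.03, did not (adjusted p = 0.144).

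From P6 to P14, a contrast that shares no array with E18 to P3, 1062 CPN genes passed (5.84%), 641 higher (3.52%) and 421 lower (2.31%). The count was 621 and 515 without P6 array 1 or 2, 270 and 445 without P14 array 1 or 2, and 1781 without either CSMN P14 array. Of the 702 genes that rose from E18 to P3, 76 rose again (10.8% of them, 11.9% of the later list) and 66 fell (9.4% and 15.7%). Of the 768 that fell, 22 fell again (2.86% and 5.23%), a share near the 2.31% of all genes, and 51 rose (6.64% and 7.96%). Thy1, a neuronal surface protein, rose in both steps, reading 7.59 and 7.94 (E18), 10.24 and 10.01 (P3), 10.93 and 11.45 (P6) and 12.95 and 12.86 (P14). Tuba4a rose in both too, by 1.87 and 1.76. Ezh2 fell in both, by 2.26 and 1.91. Kit, a receptor tyrosine kinase, rose by 2.53 from E18 to P3 and fell by 2.56 from P6 to P14, reading 7.62 and 6.86, 9.71 and 9.85, 9.39 and 9.85, and 7.18 and 6.95 at the 4 ages. Ldhb and Aldh1l1 did the reverse, with later increases of 2.21 and 2.20, and Dcx, without a call before, fell by 3.34. The later calls of Thy1, Tuba4a, Ezh2, Kit, Ldhb, Aldh1l1 and Dcx passed with any 1 CPN array of P6 or P14 left out.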

How the data were processed

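The labels name the groups, and the report uses 2 arrays each of CPN at E18, P3, P6 and P14, 2 of CSMN at E18 and 3 at P3. The deposited table holds log2 values of each probe set. The authors summarised them by RMA, per the submitters' processing notes; a version is not given in the sources used here. Values ran from 3.17 to 14.4, array medians from 6.42 to 6.62, and they were used as deposited; array scanner files were not analysed here.

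Of 45101 probe sets, 64 controls were left out, and 34945 carry 1 gene symbol, 932 several and 9160 none in the platform annotation. Of those with 1 symbol, 34741 were found in RefSeq, and 0 symbols changed. Each gene was read from its brightest probe set, which gave 18193 genes. One limma (3.58.1, R 4.3.3) model of 9 group means over 19 arrays, with 10 residual and 4.46 prior degrees of freedom and no block for the replicate number, gave moderated two-sided tests. The model was tested on simulated data in which each gene had the same spread in all groups. In the real arrays the SD of replicate differences ran from 0.18 (CSMN P6) to 0.92 (CSMN P14). The simulation therefore does not show how the model does where groups differ in spread. The labels do not say that a replicate number marks a shared litter or day, so arrays were not paired; deviations of same-numbered arrays correlated at -0.07 for CPN of E18 and P3, 0.11 and 0.01 for CSMN of E18 and P3 and 0.27 for CPN of P6 and P14.

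The members and the 35 lists (933 of 1007 genes measured) were chosen with earlier results of these data known. Named genes are the 12 largest differences per direction, the 8 largest per direction for the difference between types, up to 4 per list and direction, up to 3 well-known members not past the test, and Fabp7, Sox2, Eomes, Mki67, Cux2, Lmo4, Bcl11b and Dcx; clone and model numbers were passed over. Figures were drawn with matplotlib 3.10.9 in Python 3.11.15. Alternatives were other normalizations, filters, probe set rules, priors and weights, the replicate block and leaving out single arrays, though not every array of the series. None was run for the CPN step from P3 to P6.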

Additional observations from a re-analysis of the deposited data

Results flagged for a closer look

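The change from E18 to P3 in CPN differed from that in CSMN, by the limma test of the difference with adjusted p under 0.05, for the following named genes. Values are the CPN log2 difference minus the CSMN log2 difference, and no explanation was tested.

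Among progenitor, radial glia and astrocyte genes the value was -5.98 for Neurog2, -5.91 for Eomes, -5.35 for Insm1, -3.26 for Gadd45g, -4.97 for Sox2, -6.81 for Fabp7, -2.97 for Prom1, -3.87 for Hes5, -3.82 for Dmrta2, -3.54 for Aldoc, -2.76 for Slc1a3, -3.59 for Mlc1 and -3.57 for Aldh1l1. Among cell cycle and DNA replication genes it was -4.20 for Top2a, -3.97 for Mki67, -5.50 for Cks2, -3.87 for Ect2, -2.31 for Cdt1, -3.82 for Mcm5, -2.37 for Rrm1 and -2.20 for Mcm7. Notch and Wnt pathway genes gave -3.58 for Notch1, -3.97 for Jag1 and -3.08 for Fzd2. The list of young-neuron transcription factors gave -2.65 for Zbtb20, -2.24 for Meis2, -2.23 for Nfia and -3.35 for Tcf12. Chromatin and RNA-binding genes gave -1.51 for Ezh2, -0.96 for Hdac1, -2.36 for Actl6a, -2.11 for Ss18 and -2.49 for Mbnl2. For growth factor and thyroid hormone pathway genes it was -2.97 for Mdk, -2.68 for Fgfr1, -1.91 for Igfbpl1 and -3.39 for Slco1c1. Guidance, adhesion, migration and subplate genes gave -4.64 for Sema5a, -1.99 for Unc5d, -3.44 for Cntnap2, -2.46 for Nde1 and -5.24 for Ccn2. As given above, the CPN change of Fgfr1 did not pass without probe sets marked for cross-hybridization. Nor did that of Cntnap2 as the mean of its probe sets. The other negative values were -4.80 for Celsr1, -4.00 for Veph1, -4.06 for Fam167a, -4.78 for Acot1, -3.75 for Ccdc80, -2.02 for Ldhb and -2.37 for Cck.

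Positive values, where CPN gained more, were 2.52 for Spock3, 1.36 for Ryr2, 1.72 for Gda, 2.42 for Il1rapl2, 2.23 for Nrsn1, 2.05 for Kcnv1, 2.03 for Plxnd1, 1.96 for Dok5, 1.95 for Lhfp, 1.95 for Kit, 1.52 for Nefl, 1.34 for Grm3 and 1.27 for Thy1.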

How the results depend on the processing

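The number of CPN genes called at P3 against E18 (1470) lay within 1.5 times of that value under these 8 alternatives: 1797 after quantile and 1912 after cyclic loess normalization, 1018 among genes above the median brightness (66.6% of them higher, against 47.8%), 1514 with the mean of probe sets, 1385 without cross-hybridizing ones, 1441 with an intensity trend, 1552 with the 2 groups alone and 1250 at a difference of at least 1. With array weights it was 2350. With the replicate block it was 1613, of which 1412 were shared, so the block ended few calls. Fewer of the 1470 were shared with the 2 groups alone (1151) and with the mean of probe sets (1181), so a similar count there did not mean the same genes. The block gave 2525 for CSMN, 831 for the difference between the types and 1271 for CPN at P14 against P6. With 1 array of the compared groups or of CSMN P14 left out, counts were 576 to 2310 for CPN and 621 to 4815 for CSMN. They were 283 to 1436 for the difference and 270 to 1781 for P14 against P6. Not all arrays of the series were left out in turn. The CSMN count was 992 after cyclic loess and 1056 at a difference of at least 1, the difference count 351 among genes above the median brightness, and the P14 against P6 count 2509 with array weights; the causes were not tested.

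Among the named genes of CPN at P3 against E18, 2045 values kept their direction and their side of the threshold, 184 no longer passed and 5 newly passed. Of the 184 values, 18 came from the fit of the 2 groups alone and 12 from the mean of probe sets. The sign turned in 3: Nectin3 was -0.060 with the mean of probe sets, and without cross-hybridizing probe sets Fgfr2 was 0.060 and Bmf 0.15. For the difference between types 1126 values kept their call and 149 did not. With either CSMN P14 array left out, 12 list counts moved by over 1.5 times. Dim probe sets limit small changes, since signal over background was not given.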

Other observations

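Over all genes 3.86% were higher and 4.22% lower in CPN, and counts of 1 member in the lists below are near those shares. Splicing and RNA-binding regulators held 3 higher and 1 lower member of 33. Without E18 array 1, E18 array 2, P3 array 1 and P3 array 2 in turn, 2 were higher each time and 0, 1, 0 and 0 lower, and counts below follow this order. Celf4, an RNA-binding protein of excitatory neurons, read 9.96 and 10.01 in the CPN E18 arrays and 11.19 and 11.20 at P3, a 2.32-fold increase (limma adjusted p = 1.60e-04), and Rbfox3, the neuronal splicing factor NeuN, rose by 1.34 ± 0.22 (adjusted p = 0.0014). Of 39 migration and young-neuron cytoskeleton genes 5 rose and 2 fell (4, 2, 2 and 2 higher, and 2, 1, 1 and 1 lower, with each array left out). Nde1, a dynein partner active in progenitor division, read 9.14 and 8.17 at E18 and 5.89 and 5.90 at P3 (-2.76 ± 0.41, adjusted p = 5.55e-04). Of 21 thyroid hormone and nuclear receptor genes 3 rose and 1 fell (3, 2, 2 and 1 higher, and 1 lower each time, with each array left out). The latter, the thyroid hormone transporter gene Slco1c1, read 11.10 and 10.34 at E18 and 7.61 and 7.49 at P3 (-3.17 ± 0.39, adjusted p = 1.07e-04). Early response and stress genes held 2 higher and 3 lower members of 33, which became 3, 1, 1 and 2 higher and 2, 0, 0 and 0 lower with each array left out. Of 20 cholesterol synthesis genes 1 was higher, and 0 in each leave-out. Intrinsic apoptosis genes held 1 higher and 2 lower of 19, which became 2, 0, 0 and 0 higher and 0, 2, 2 and 0 lower. Bcl2, an inhibitor of apoptosis, differed by -1.55 ± 0.32, a call lost without E18 array 1 or P3 array 2.

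Outside the genes with 1 symbol, 10092 probe sets have several symbols or none. For CPN at P3 against E18, 109 of them were higher and 92 lower (1.99%), beside 908 and 1183 of the 34945 probe sets with 1 symbol (5.98%).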
